A study of Mus musculus with 15 samples.

Results

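The genes described here encode the nuclear subunits of the mitochondrial respiratory chain and of ATP synthase. They are the protein-coding symbols of GENCODE vM1 on the mouse build mm9 that begin with Nduf, Sdha, Sdhb, Sdhc, Sdhd, Uqcr, Cox4, Cox5, Cox6, Cox7, Cox8 or Atp5, which gave 93 of 22219 symbols. Of these, 36 encode complex I, 4 complex II, 8 complex III, 11 the widely expressed subunits of complex IV (with Ndufa4, now counted there), 15 ATP synthase (complex V) and 8 isoforms known from particular tissues or from low oxygen. The remaining 11 symbols are taken by the letters of the rule: the assembly factors Ndufaf1 to Ndufaf4, Sdhaf1 and Sdhaf2, the supercomplex factor Cox7a2l, Atp5s, Atp5sl, the pseudogene-like Atp5l-ps1 and Cox4nb, whose product belongs to a membrane protein insertion complex and not to the chain.

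In the inner mitochondrial membrane, complexes I and II pass electrons from NADH and succinate to ubiquinone, complex III passes them on to cytochrome c, and complex IV hands them to oxygen. Complexes I, III and IV pump protons while they do so, and ATP synthase makes ATP as the protons flow back. Promoters of the nuclear genes are known for sites of Nrf1, of ETS factors such as Gabpa and of YY1, and Myc binds many promoters of growing cells.

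Chromatin immunoprecipitation with sequencing (ChIP-seq) was done in 3T9 fibroblasts, a line from mouse embryos with the genotype c-mycflox/flox that had been infected with MycER. MycER is a Myc fusion made active by 4-hydroxytamoxifen (OHT), given at 400 nM. The 6 times of OHT were 0, 10, 20 and 30 min, 2 h and 4 h, each mapped for Myc (antibody N262) and for RNA polymerase II (RNAPII, antibody N20). Miz1, a zinc finger partner of Myc, was mapped with the home-made antibody 10E2 in these fibroblasts and in B220-selected splenic B cells of wild-type C57BL/6 mice aged 6 to 8 weeks. The Miz1 library of fibroblasts has no OHT dose or time in its labels. All fibroblast groups share the floxed alleles and the transgene, the line is 1 line, and N262 peaks were not assigned to endogenous Myc or to MycER. The data used were the authors' peak lists, 1 library per group, so that differences cannot be set against a spread, and neither tests nor SDs are given.

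The Myc libraries held 28132063 to 33431447 tags. The RNAPII libraries of 0 min, 30 min and 4 h were close in depth (15276996, 16274905 and 16268203 tags), while the 20 min library was the deepest at 36396286. RNAPII has a narrow list (MACS 1.4.2) and a broad list (MACS 2.0.9) for each library. Of 8 fibroblast markers, 7 had an RNAPII promoter peak at 0 min, Col1a1 and Fn1 among them, and Thy1 had none. Of 6 B cell markers none had an RNAPII promoter peak in the fibroblast list of 0 min, and 2, Cd79a and Cd22, had a Miz1 promoter peak in B cells, where neither Myc nor RNAPII lists were used here.

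The sequences at the members' Myc summits are shown first, since the text returns to them. A summit is the highest point of a peak as the authors' caller placed it. At 4 h, 83 members had a Myc summit within 1000 bp of a transcription start site (TSS), and 11 of these held CACGTG, the canonical E-box that Myc and Max bind, within 100 bp of the summit (13.3%, against 16.7% of all 9696 genes with such a summit). For 8 of these 11 the E-box is printed with 12 bases on either side, from the plus strand of mm9, with the E-box in capitals.
Atp5sl (chr7:26404399-26404428): tggtgtctgaacCACGTGttaggagggaac
Ndufaf4 (chr4:24825265-24825294): cggtggcttctaCACGTGcgtagtgaacta
Ndufs1 (chr1:63223888-63223917): gggggccggggcCACGTGgcgcgggctcgg
Atp5f1 (chr3:105762413-105762442): gcagaggtacacCACGTGtgcggtccctcc
Atp5g1 (chr11:95936972-95937001): agctcccccaccCACGTGttcggagtccct
Ndufa5 (chr6:24477932-24477961): atgctttccctcCACGTGtgtgaatgcata
Uqcrq (chr11:53244138-53244167): gctgtaggagatCACGTGccgtatccgcgc
Ndufa7 (chr17:33961433-33961462): gcggagaggagtCACGTGagcaggggatgc
The E-box centre lay between 5 bp (Atp5sl) and 86 bp (Uqcrq) from the summit. The annotation places these E-boxes in different settings. That of Atp5sl lay outside every annotated protein-coding transcript, just before the first annotated TSS. That of Atp5g1 held the base of the first annotated TSS and otherwise lay just before it. The E-boxes of Ndufaf4, which encodes an assembly factor of complex I, and of Ndufa5 lay in a UTR of their own gene, and that of Uqcrq lay in its own coding exon. Those of Ndufs1 and Ndufa7 lay in the neighbour across the shared promoter, in an intron of Eef1b2 and a UTR of Rps28. The Atp5f1 E-box lay where UTRs of Atp5f1 and Wdr77 overlap. The other 3 members with an E-box had it at Atp5a1, Ndufaf2 and Ndufa4l2. The Atp5sl peak had the highest fold of all members at 4 h, and the 150 bases before its first TSS are printed on the plus strand, the strand of the gene, with the E-box in capitals.
Atp5sl (chr7:26404283-26404432): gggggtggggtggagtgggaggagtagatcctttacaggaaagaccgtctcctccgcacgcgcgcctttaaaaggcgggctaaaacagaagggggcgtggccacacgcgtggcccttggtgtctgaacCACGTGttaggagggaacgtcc

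A word other than the E-box was more frequent at the members than at all genes. AAGATGGCG, the core of the YY1 motif, lay within 100 bp of the Myc 4 h summit in 11 of 83 members (13.3%), against 2.52% of all genes with such a summit. In the promoter, taken from 250 bp before to 50 bp after any protein-coding TSS, 10 of 93 members held it (10.8%), against 2.59% of all genes and 4.82% of genes with a narrow RNAPII promoter peak at 0 min. In 9 of the 10 members the word ran in the direction of the gene, and in all 9 its ATG was the annotated start codon, against 222 of the 429 genes of all kinds that held it in that direction (51.7%). Among these are Atp5j2, Atp5sl, Uqcrc1 and the complex I genes Ndufa2, Ndufa9, Ndufs4, Ndufs6 and Ndufs7. In Atp5h the word ran the other way, in a coding exon of the neighbour Kctd2. For 8 of the 10 the word is printed on the strand of the gene with 10 bases on either side and the word in capitals.
Atp5h (chr11:115281469-115281497): gctgcagctcCGCCATCTTgggccgccgc
Atp5j2 (chr5:145952369-145952397): ccaggacttcAAGATGGCGtcactcggtg
Atp5sl (chr7:26404449-26404477): gttacctggcAAGATGGCGgcgcccagag
Ndufa9 (chr6:126799115-126799143): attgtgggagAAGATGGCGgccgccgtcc
Ndufs4 (chr13:115178249-115178277): tgcctacaggAAGATGGCGgcggtctcaa
Ndufs6 (chr13:73465879-73465907): ggtcaccggcAAGATGGCGgcggtgctga
Ndufs7 (chr10:79712208-79712236): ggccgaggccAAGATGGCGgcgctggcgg
Uqcrc1 (chr9:108838719-108838747): cggaagttagAAGATGGCGgcgtccgcag
A match is a run of letters, and YY1 itself was not mapped here.

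The word for Nrf1, GCGCATGCG, was in the promoters of 9 members (9.68%), against 2.52% of all genes and 4.63% of genes with RNAPII at 0 min. They are Atp5g2, Atp5k, Atp5l, Cox6a1, Cox6c, Ndufa11, Ndufaf4, Uqcr11 and Uqcrc1. The ETS word CCGGAAG was in 22 (23.7%), above the 13.9% of all genes but close to the 24.4% of genes with RNAPII at 0 min. The E-box was in 10 promoters (10.8%), against 10.7% of all genes and 14.6% of those with RNAPII. In all these promoter comparisons, that of YY1 included, the members' shares are over all 93, also those without RNAPII. The sets with RNAPII at 0 min are thus not matched to the members. Every word was searched on both strands, and in no member promoter did 2 different words overlap.

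**Figure D1:**
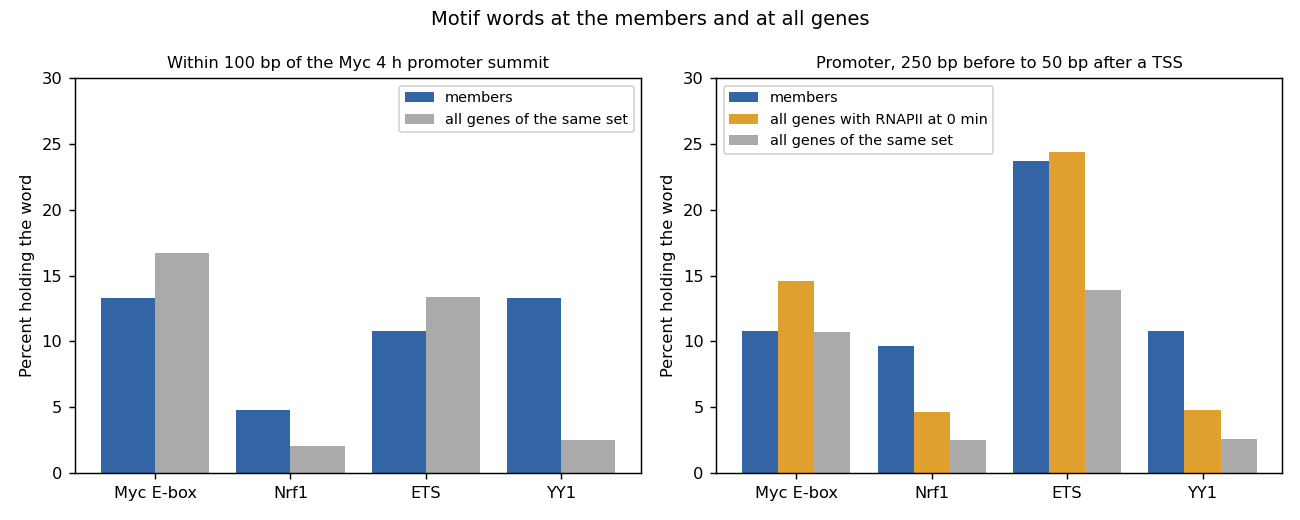
Percent of genes holding the words for the Myc E-box, Nrf1, ETS factors and YY1, within 100 bp of the Myc 4 h promoter summit (left, members and all genes with such a summit) and in the promoter (right, members with or without RNAPII, all genes with RNAPII at 0 min and all genes). The members exceed both sets of other genes for Nrf1 (9.68%) and YY1 (10.8%) in promoters, and not for the E-box.

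Myc was called at the promoters of nearly all widely expressed members before and after OHT. With a peak within 1000 bp of a TSS counted, 81, 83, 84, 84, 83 and 83 of the 93 members had Myc at 0, 10, 20 and 30 min, 2 h and 4 h, against 44.7%, 46.8%, 47.9%, 46.6%, 48.9% and 46.7% of all genes. At 4 h these were 34 of 36 genes of complex I, all 4 of complex II, all 8 of complex III, all 11 widely expressed genes of complex IV, all 15 of ATP synthase, 10 of the 11 other symbols and 1 of the 8 tissue isoforms. In all 6 lists together 80 members had Myc (86.0%, against 43.3% of all genes). Members with RNAPII had Myc about as often as other genes with RNAPII. Of the 86 members with RNAPII at 0 min, 82 had Myc at 4 h (95.3%, against 92.2% of all such genes) and 80 at 0 min (93.0%, against 89.6%).

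Few members differed between the Myc lists. A gene with Myc in all 5 later lists and not at 0 min was rare in the genome (1.62%), and 2 members were of this kind, Ndufb3 and Ndufs5, accessory subunits of complex I. Ndufb3 had folds of 12.9, 11.5, 12.9, 14.96 and 13.9 from 10 min to 4 h, and Ndufs5 had 5.27, 6.87, 5.05, 7.05 and 6.25. The Ndufs5 peaks were thus weak in every list that had one. Ndufa1, an X-linked subunit of complex I, was called at 10, 20 and 30 min and 2 h (8.05, 10.1, 7.17 and 15.5-fold) and neither at 0 min nor at 4 h. Ndufa9 was called at 20 min alone (7.44-fold), 72 bp after its TSS, although its RNAPII peak was present in all 6 lists (10.9 to 17.2-fold). Fold enrichment is the authors' ratio of ChIP to control tags in a peak. It ranks peaks within 1 list and does not measure a change between lists.

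Ranked within the 4 h list among all genes with a promoter peak, the members' Myc peaks stood in the middle, with a median percentile of 49.7, from 2.70 (Ndufs5) to 96.4 (Atp5sl). Their median fold was 18.3, the same as that of all genes (18.3). At 0 min the median percentile was 43.6. Without members that have another gene's TSS within 1000 bp, an alternative chosen after seeing the data, the medians were lower. They were 45.8 at 4 h and 35.2 at 0 min. The top 20% of the list held 11 of 83 members at 4 h (13.3%, against 20.1% of all genes) and 10 of 81 at 0 min (12.3%, against 20.0%).

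Genes of ATP synthase ranked higher than the other complexes. Their median percentile was 67.4 at 4 h and 73.4 at 0 min, from 14.4 (Atp5k) to 92.1 (Atp5g2) at 4 h. Atp5g2, Atp5g1 and Atp5g3 encode the c subunit that forms the proton-driven ring. Atp5g3 stood near the middle, at percentiles of 51.04 at 0 min and 56.1 at 4 h. The Atp5g2 peak had folds of 34.2, 63.1, 50.1, 59.05, 70.2 and 49.6 in the 6 lists from 0 min to 4 h. That of Atp5g1 had folds of 37.1, 40.4, 49.1, 38.3, 50.99 and 39.03. Both were above the median fold of their list at every time, while Atp5g3 was below it at 10 min (15.96-fold) and 30 min (16.9-fold). Atp5f1, which encodes the stalk subunit b, had folds of 38.4, 48.8, 49.6, 44.6, 57.5 and 46.8, with a 4 h summit nearer to the TSS of Wdr77 (184 bp) than to its own (546 bp). Atp5b, which encodes the catalytic subunit, stood lower, with a percentile of 66.5 at 4 h. Atp5j2, Atp5h and Atp5k were the low members, at percentiles of 21.2, 20.4 and 14.4.

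In complex I the median percentile was 46.9 at 4 h. Ndufs1, which encodes the large iron-sulfur subunit of the electron input arm, stood at 93.7 with folds of 52.5, 45.8, 62.2, 58.3, 64.2 and 53.7 from 0 min to 4 h. Its TSS is 3 bp from that of Eef1b2, a translation elongation factor gene, and the 4 h summit lay 472 bp from the one and 469 bp from the other, so the peak cannot be assigned to either. Ndufa12 had 38.6-fold and Ndufa13 36.6-fold at 4 h. Ndufa12 has no other gene at its promoter, and its folds of 14.8, 53.4, 41.5, 34.3, 46.8 and 38.6 were above the median of their list at all 6 times. Ndufv1, which encodes the NADH-binding subunit, was at 15.9-fold.

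In complex II, Sdha, the flavoprotein that oxidises succinate, led with 32.5-fold at 4 h (percentile 79.1), and its promoter is shared with Ccdc127. Sdhd and Sdhc, the membrane anchors, had 16.99 and 14.4-fold, and Sdhb, the iron-sulfur subunit, 9.98-fold. Complex III had the lowest median of the complexes at 4 h, 34.3. Uqcrq led with 28.8-fold, followed by Uqcrh (23.2) and Uqcrb (16.02), while the core protein gene Uqcrc1 had 8.41-fold and the Rieske protein gene Uqcrfs1 13.7-fold.

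In complex IV, Cox5a was far above the rest, with folds of 26.98, 42.8, 46.4, 39.2, 60.1 and 50.5 from 0 min to 4 h and a percentile of 92.4 at 4 h. No other TSS lay within 1000 bp of its own. Cox7a2 (24.4-fold) and Cox4i1 (24.2-fold) followed at 4 h. Cox4i1 shares 1 peak with Cox4nb. Cox5b, which encodes another subunit of the complex, had 6.27-fold, and Cox6b1 had 6.59-fold, at percentiles of 2.74 and 3.51.

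**Figure D2:**
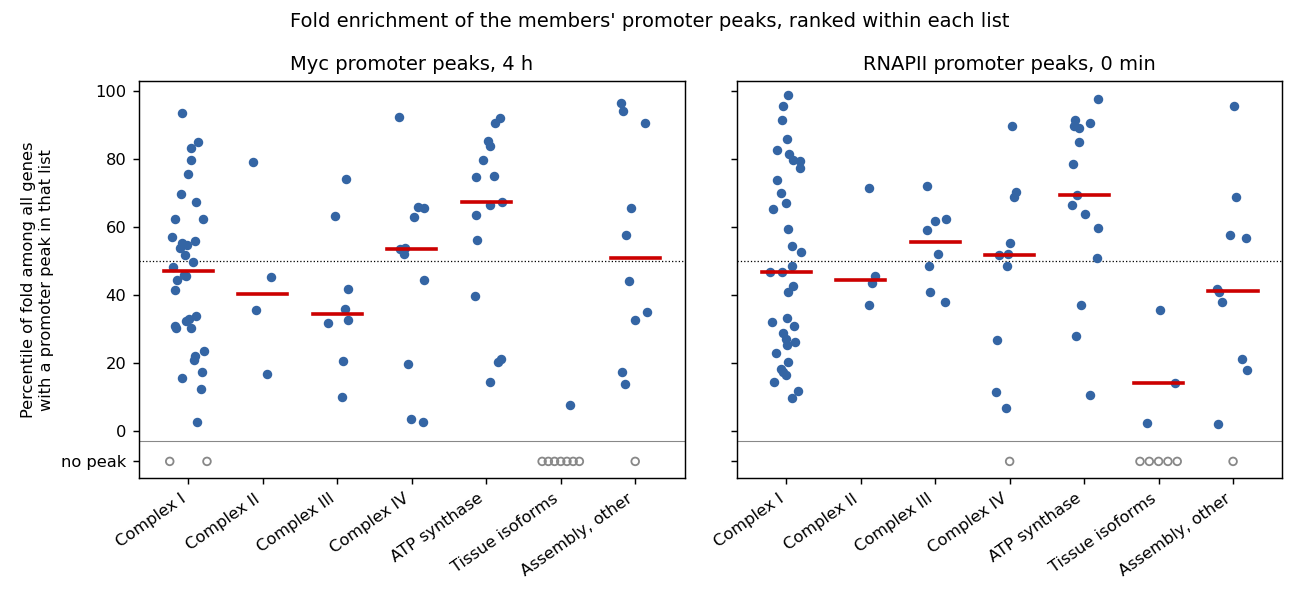
Percentile of each member's promoter peak by fold among all genes with a promoter peak in the Myc list of 4 h (left) and the narrow RNAPII list of 0 min (right), by complex. Points are genes, red lines medians of groups with 3 or more points, open circles members with no peak, and the dotted line the middle of the list. The ATP synthase medians (67.4 and 69.5) are the highest, and 7 of 8 tissue isoforms have no Myc peak at 4 h.

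The isoforms known from other tissues were largely without peaks in these fibroblasts. No Myc promoter peak at any time was found at 8 members (8.60%, against 50.4% of all genes), which were 7 of the 8 isoforms and Atp5l-ps1. Cox4i2 (lung), Cox6a2 (heart and skeletal muscle) and Cox6b2, Cox7b2 and Cox8c (testis) had neither Myc nor narrow RNAPII promoter peaks at any of the 6 times. Cox7a1 and Cox8b, both of heart and skeletal muscle, had no Myc peak but weak RNAPII peaks, 13.9, 9.71, 10.7, 12.4, 9.29 and 10.2-fold at Cox7a1 over the 6 times and 7.43 to 9.29-fold at Cox8b, which had none at 4 h. Their widely expressed counterparts all had Myc at 6 of 6 times. At 4 h the RNAPII fold was 34.6 at Cox4i1, 35.4 at Cox6a1, 16.4 at Cox6b1, 31.5 at Cox7a2, 16.5 at Cox7b, 30.2 at Cox8a and 24.3 at Ndufa4. Ndufa4l2, known to be induced by low oxygen, differed from the tissue isoforms. It had RNAPII at all 6 times (23.5, 33.2, 29.3, 34.2, 42.4 and 34.3-fold) and weak Myc peaks at 0 min, 30 min and 4 h (8.14, 6.45 and 7.73-fold).

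RNAPII was called at the promoters of 86, 87, 85, 86, 86 and 86 members in the narrow lists of the 6 times, against 47.5%, 47.3%, 48.4%, 46.4%, 46.3% and 46.8% of all genes. In the broad lists there were 85, 86, 87, 85, 86 and 84, against 44.4%, 44.9%, 46.8%, 43.3%, 43.8% and 43.8%. The genes of complexes I, II and III, the widely expressed genes of complex IV and ATP synthase all had a narrow peak in at least 1 list. The median percentile by fold was 59.1 at 4 h and 51.3 at 0 min. At 4 h complex III had a median of 67.9 and ATP synthase 66.1, while at 0 min ATP synthase led with 69.5. The top 20% of the list held 15 of 86 members at 4 h (17.4%, against 20.0% of all genes) and 14 of 86 at 0 min (16.3%, against 20.0%). A narrow peak was present in all 6 lists at 83 members (89.2%, against 43.5% of all genes) and in none at 6 (6.45%, against 50.0%).

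Some of the highest RNAPII folds belong to a peak that spans several genes. At 0 min, 82 of the 86 members had their RNAPII summit within 1000 bp of their own TSS. In 17 of the 86 the summit was nevertheless nearer to a TSS of another gene. The Myc summit was nearer to another gene in 13 of 83 members at 4 h and 13 of 81 at 0 min. The shares of all genes for these counts are not given here. Ndufb10 was the highest of the members with 119.38-fold, but its summit lay 4445 bp from its own TSS and 96 bp from that of Rps2, a ribosomal protein gene. The Atp5d summit (97.00-fold) was 43 bp from the TSS of Midn, and the Ndufaf3 summit (77.9-fold) 18 bp from that of Impdh2. Promoters shared with a neighbour were common. A TSS of another protein-coding gene lay within 1000 bp of their own in 31 of 93 members (33.3%, against 12.3% of all genes). Among genes with RNAPII at 0 min it did so in 31 of 86 members (36.0%, against 21.6%). Pairs include Atp5j with Gabpa, itself a regulator of these genes, Sdhd with Timm8b, Ndufb5 with Mrpl47 and Ndufa7 with Rps28. A promoter peak of such a pair cannot be told apart between its 2 genes. Of the remaining 62 members, 53 had Myc at 4 h (85.5%, against 41.6% of all 19476 genes with no such neighbour) and 52 at 0 min (83.9%, against 39.5%). RNAPII was at 55 of the 62 at 4 h (88.7%, against 41.7%) and at 55 at 0 min (88.7%, against 42.4%).

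Miz1 was called at the promoters of 8 members in fibroblasts (8.60%, against 8.25% of all genes) and of 5 in B cells (5.38%, against 5.48%), both at the background. Among genes with RNAPII at 0 min, 9.30% of members and 16.1% of all genes had Miz1 in fibroblasts. Ndufa5, an accessory subunit of complex I, was the only member called in both (1.08%, against 2.43% of all genes), with 82.6-fold in fibroblasts and 48.7-fold in B cells. Either list held 12 members (12.9%, against 11.3%). The other 7 members of the fibroblast list were Atp5l (20.6-fold), Ndufa13 (11.2), Atp5g3 (8.47), Atp5s (5.21), Atp5g1 (5.16), Ndufs7 (3.97) and Ndufaf1 (3.18). The other 4 of the B cell list were Atp5o and Ndufv2 (7.91 each), Ndufs5 (7.42) and Atp5d (6.56). The fibroblast list was called at p 1e-02 and the B cell list at p 1e-05, and at 1e-05 in both, 5 members stood in the fibroblast list (5.38%, against 5.92% of all genes).

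The Ndufa5 summits in fibroblasts and B cells lay 49 bp and 53 bp before an annotated TSS of Ndufa5 and 525 bp and 521 bp from the TSS of Asb15. The 30 bases around the fibroblast summit, in a UTR of the longer Ndufa5 transcript, are printed from the plus strand of mm9.
Ndufa5 (chr6:24477605-24477634): atcgagcgtcgatgctgcccctgagtcacc
The Myc summit of 4 h at this promoter, with the E-box printed above, lay 280 bp away from the Miz1 summit.

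RNAPII along genes was measured as cover, which here means how many percent of a gene RNAPII peaks overlie once its first 1000 bp are left out. It was computed for genes of at least 3000 bp with a narrow promoter peak at any time, which took 71 members and 10222 genes. Of the other members, 20 were shorter and 2 had no such peak. The members' median narrow cover was 10.4%, 22.5%, 23.3%, 11.98%, 20.6% and 14.9% at 0, 10, 20 and 30 min, 2 h and 4 h, against 4.13%, 7.94%, 11.1%, 5.10%, 6.23% and 4.49% for all genes. Depth moves with this order, since 20 min was the deepest library and 10 min and 2 h came next (19999678 and 19859793 tags), and its part in the differences was not tested. A long promoter peak also enters cover, since the members' narrow promoter peaks had median lengths of 3044 bp at 0 min and 3516.5 bp at 4 h. Without the first 2000 bp, the members' medians were 0.425%, 2.09% and 3.38% at 0 min, 30 min and 4 h. The medians of all genes under that setting are not given here. Gene length also differs, with a median of 8371 bp for the members and 24225 bp for all genes. Among genes under 10000 bp, the median over 42 members was 18.9%, 48.04%, 83.1%, 26.02%, 42.2% and 28.6% at the 6 times, against 30.997%, 48.03%, 63.1%, 33.2%, 41.9% and 32.2% for all 2239 genes. In this range the members were lower at 0 min, 30 min and 4 h, close at 10 min and 2 h, and higher at 20 min.

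The complexes differed in the share of their genes that RNAPII peaks overlie, and gene length, which enters this share, was not matched between them. ATP synthase genes had a median cover over 13 genes of 71.7%, 59.6% and 87.9% at 0 min, 30 min and 4 h, the highest of the complexes at 0 min and 4 h, while at 30 min complex IV was higher, with 70.9% over 8 genes. Complexes I and II had medians under 10%, as did all genes (4.13%, 5.10% and 4.49% at 0 min, 30 min and 4 h). At these times the median was 7.13%, 5.61% and 6.53% over 32 genes of complex I and 7.58%, 1.53% and 4.79% over the 4 of complex II. At least 80% cover was found in 11, 13 and 18 members at 0 min, 30 min and 4 h (15.5%, 18.3% and 25.4%, against 10.9%, 13.6% and 12.1% of all genes). In 9 members at least 80% of the gene lay under narrow peaks at all 6 times (12.7%, against 7.82% of all genes), namely Atp5a1, Atp5b, Atp5d, Atp5g2, Atp5j2, Cox4i1, Ndufa6, Ndufb7 and Ndufb9. These shares are not matched for gene length, and a peak that spans a neighbour counts too, as at Atp5d. In 17 members cover stayed under 10% at all 6 times (23.9%, against 44.0%). Among them is Ndufs1, with a cover of 0 to 1.46%. The strong peaks of Myc and RNAPII at its promoter, shared with Eef1b2, cannot be assigned to either gene. Atp5o had 3.06 to 4.43% over an annotated length of 247290 bp, a span set by 1 long transcript.

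**Figure D3:**
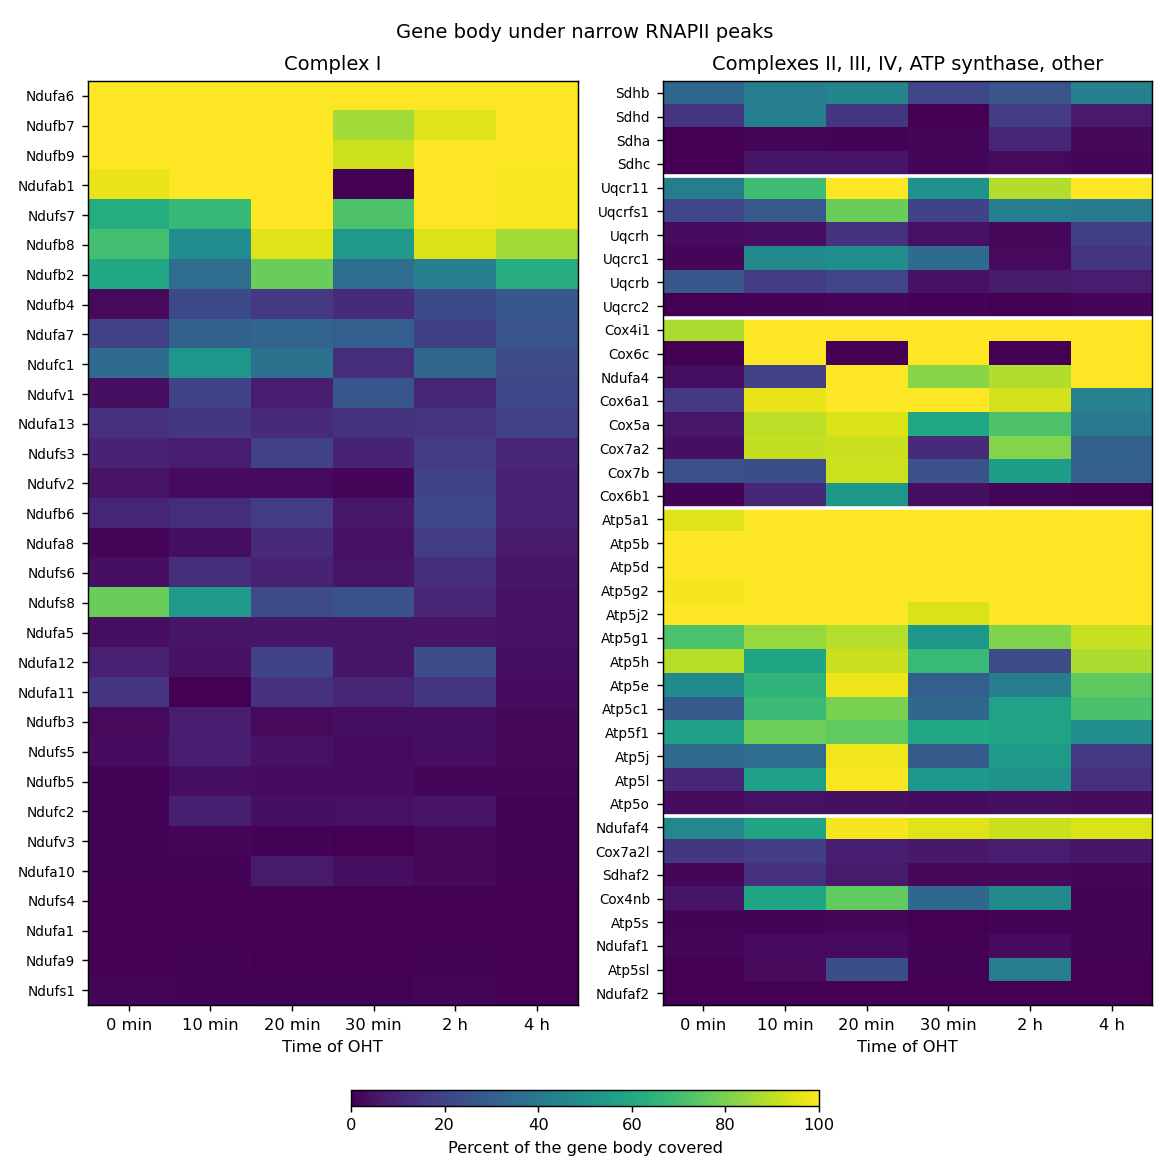
Percent of each gene body under narrow RNAPII peaks at 6 times of OHT, for 31 genes of complex I (left) and the other 39 members (right, white lines between complexes II, III, IV, ATP synthase and the remaining symbols), sorted by the value at 4 h. Rows of ATP synthase are mostly bright at all times, most complex IV rows are darker at 0 min than later, Cox6c alternates between 0% and 100%, and Ndufab1 is at 0% at 30 min.

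Compared with 0 min, cover was more than 20 percentage points higher in 12 members at 4 h (16.9%, against 7.22% of all genes) and lower in 1 (1.41%, against 4.75%). At 30 min it was higher in 9 (12.7%, against 9.17%) and lower in 6 (8.45%, against 3.86%). Higher members at 10 min, 20 min and 2 h numbered 11, 18 and 14 (background 12.7%, 21.7% and 10.3%), and lower ones 4, 1 and 2 (1.73%, 2.02% and 3.35%), but these 3 libraries were deeper than that of 0 min. Among genes under 10000 bp, 10 of 42 members were higher at 4 h (23.8%, against 10.9%) and 1 was lower (2.38%, against 9.47%), while at 30 min 6 were higher (14.3%, against 11.9%) and 4 lower (9.52%, against 8.35%).

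Complex IV genes made up 5 of the 12 higher members at 4 h and 4 of the 9 at 30 min, out of 8 in the measure, with Cox6c, which had no narrow peak at 0 min, among both. Ndufa4 had a cover of 3.67%, 19.5%, 100%, 82.3%, 88.4% and 100% over the 6 times, with the narrow peaks reaching along most of the gene from 20 min on. Cox6a1 had 16.5%, 96.7%, 100%, 100%, 93.03% and 44.4%. Cox5a had 6.30%, 90.1%, 94.5%, 59.5%, 72.00% and 40.3%. Cox5a and Cox6a1 were the 2 members above 0 min by over 20 points in all 5 later lists (2.82%, against 3.93% of all genes). Cox7a2 had 4.18%, 90.8%, 91.9%, 11.98%, 81.3% and 30.9%, so that it was high in the 3 deeper libraries and much lower in the other later ones. Median cover over the 8 genes of complex IV was 5.24%, 90.5%, 93.5%, 70.9%, 76.7% and 42.4%.

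Outside complex IV, Uqcr11, a small subunit of complex III, had 42.1%, 68.9%, 100%, 50.9%, 88.5% and 100% over the 6 times. Uqcrc1 had 1.26%, 47.5%, 49.7%, 34.97%, 2.66% and 14.9%. Ndufaf4 had 46.4%, 58.3%, 98.7%, 95.1%, 91.9% and 94.3%, and its Myc peak was among the highest of all members. Ndufs7 and Atp5c1 were higher at 4 h, with 98.9% against 61.97% and 71.2% against 28.4% at 0 min. Atp5l was higher at 30 min, with 53.3% against 11.4% at 0 min, but stood at 13.97% at 4 h. Ndufv1 was higher at 30 min, with 26.8% against 4.13% at 0 min, as was Cox4nb, with 33.4% against 5.70%. Ndufb4 had 27.2% at 4 h against 2.66% at 0 min, Uqcrfs1 41.7% against 21.3% and Atp5e 75.02% against 47.8%.

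Ndufs8, which encodes an iron-sulfur subunit of complex I, was the 1 member lower than at 0 min by over 20 points in all 5 later lists (1.41%, against 0.382% of all genes). Its cover was 77.4%, 53.8%, 23.3%, 25.2%, 10.8% and 4.88%. The other members lower at 30 min were Ndufab1, Ndufb2, Ndufc1, Uqcrb and Atp5h. Uqcrb had 5.02% at 30 min against 26.98% at 0 min, and 7.52% at 4 h. Atp5h had 67.8% at 30 min against 89.2% at 0 min, and 87.9% at 4 h. In complex II no gene passed 20 points at 30 min or 4 h in either direction.

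Cox6c and Ndufab1 show a gap of the narrow lists. Cox6c had no narrow peak over its gene at 0 min, 20 min and 2 h, while the broad lists of the same libraries held promoter peaks of 18.4, 20.9 and 15.1-fold there. Its narrow cover was 100% at 10 min, 30 min and 4 h and 0% at the other times. Ndufab1 had no narrow peak at 30 min, where the broad list held 1 of 20.0-fold, and Ndufa13 none at its promoter at 20 min, where the broad list held 1 of 24.99-fold. Across the 6 libraries, 0.556% to 2.61% of broad peaks of at least 10-fold had no narrow peak under them. Without the genes touched by such a gap, 11 of 68 members were higher at 4 h (16.2%, against 6.85% of 9933 genes) and 1 was lower (1.47%, against 4.46%). At 30 min 8 were higher (11.8%, against 8.68%) and 5 lower (7.35%, against 3.44%).

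The broad lists gave far less cover and fewer differences. The members' median was 0% at every time, and the mean cover at 0 min, 30 min and 4 h was 3.47%, 3.42% and 4.67%, against 5.17%, 6.21% and 5.77% for all genes. At 4 h, 2 members were higher by over 20 points (2.82%, against 2.26%), Ndufaf4 with 26.9% against 0% at 0 min and Atp5j2 with 36.1% against 14.8%, and 0 were lower (against 1.06%). At 30 min 0 were higher (against 2.90%) and 2 lower (2.82%, against 0.880%), Ndufb7 with 0% against 33.2% at 0 min and Atp5b with 45.9% against 66.4%. At 4 h Ndufaf4 was the 1 member that passed 20 points in the same direction in both kinds of list, with 94.3% against 46.4% at 0 min in the narrow lists, and none did at 30 min. Ndufa4 and Cox6a1 had broad peaks at the promoter and a broad cover of 0% at 0 min, 30 min and 4 h.

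**Figure D4:**
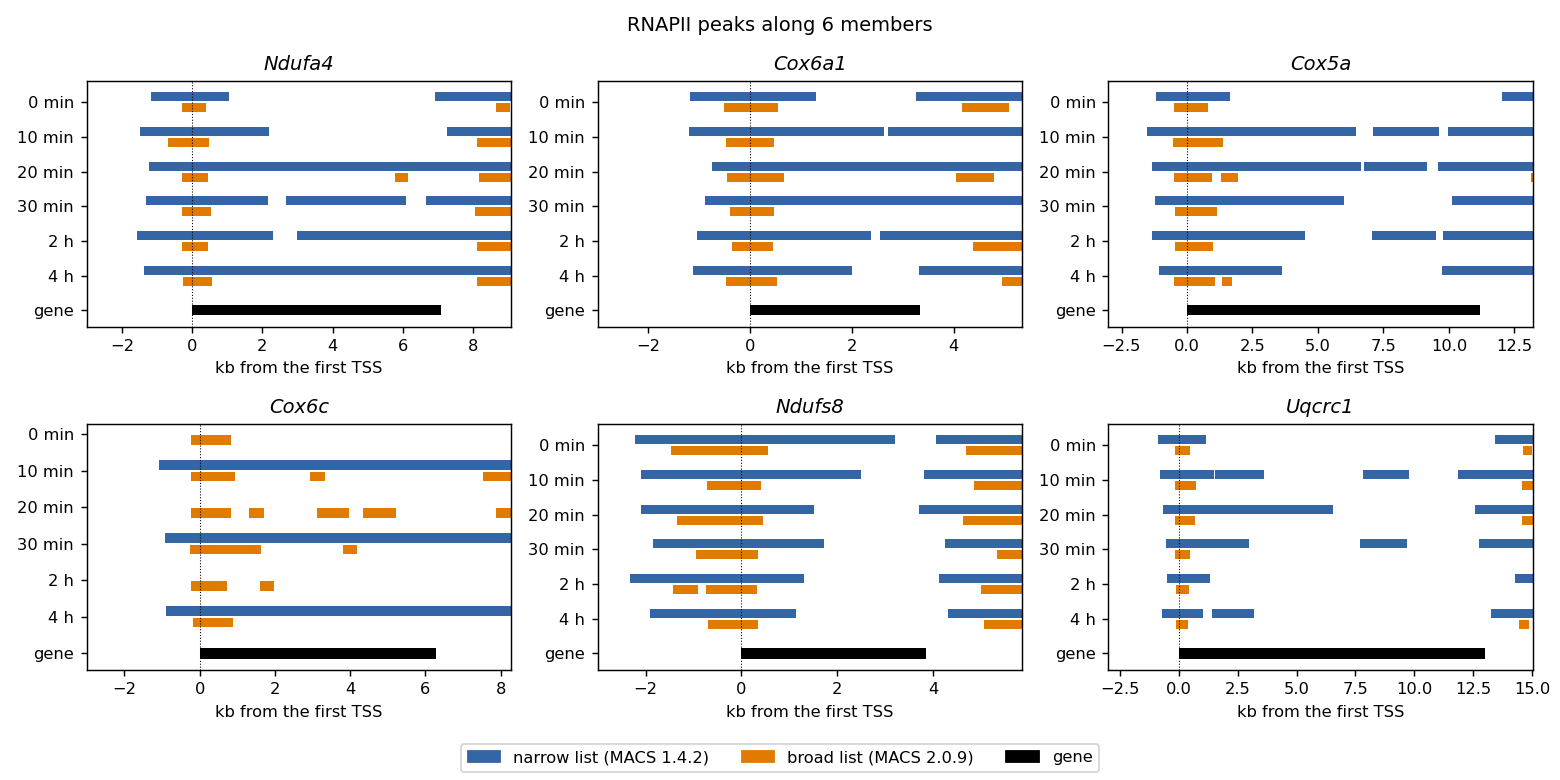
Narrow (blue) and broad (orange) RNAPII peaks along Ndufa4, Cox6a1, Cox5a, Cox6c, Ndufs8 and Uqcrc1 at 6 times, by distance in kb from the first annotated TSS in the direction of the gene (black bar). Narrow peaks run across Ndufa4 at 20 min and 4 h and shorten along Ndufs8, broad peaks lie mostly near the TSS and past the gene end, and Cox6c lacks narrow peaks at 0 min, 20 min and 2 h where broad peaks are present.

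Genes of the same pathway outside the letters of the rule were read from lists chosen for their roles. All 9 electron carriers and further subunits, all 23 matched of 28 assembly factors, all 13 enzymes of the tricarboxylic acid cycle and all 11 regulators had Myc in all 6 lists (43.3% of all genes). Cycs, which encodes cytochrome c, had 33.2-fold at 4 h and 22.6-fold at 0 min, with a cover of 90.8% and 78.9% at these times, and Cyc1, the cytochrome of complex III, had 13.5-fold and 10.3-fold. By cover at 4 h and at 0 min, 0 of 8 carriers, 2 of 22 assembly factors, 2 of 13 cycle enzymes and 2 of 10 regulators were higher by over 20 points (against 7.22% of all genes), and 1, 1, 0 and 1 were lower (against 4.75%). Tfam, which packages mitochondrial DNA, had Myc folds of 18.1, 48.0, 49.4, 54.1, 60.8 and 44.9 over the 6 times. Pprc1 had 57.5-fold at 4 h, while Ppargc1a, a coactivator known from brown fat and muscle, had Myc at 7.70-fold and no narrow RNAPII promoter peak at 0 min, 30 min or 4 h.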

How the data were processed

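ChIP-seq peak lists of 14 libraries, 1 per group, were used, 20 lists in all. The submitters' processing notes name BWA 0.6.2-r126, MACS2 2.0.9 and the build mm9. Myc and narrow RNAPII lists came from MACS 1.4.2 and the broad RNAPII and Miz1 lists from MACS 2.0.9, each on 1 library against a control, per the file headers. The p cutoff was 1e-08 for Myc and RNAPII, 1e-02 for Miz1 in fibroblasts and 1e-05 in B cells, so the Miz1 lists differ in reach. A deeper library passes weaker sites. MACS 1.4.2 kept 1 tag per position and MACS 2.0.9 up to 2, per the file headers.

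The tags in a peak are raw counts, as the authors deposited them. Significance is a score of −10 log10 p in the MACS 1.4.2 lists and −log10 p or q in the others, per the file headers. The fold of a peak is the authors' ratio of ChIP to control, the false discovery rate is the authors' percent, and the pileup is the deposited signal at the summit.

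Computed here, with Python 3.11.15, pandas 2.3.3 and pysam 0.24.0, were peaks overlapping by at least 1 bp the 1000 bp either side of TSSs of protein-coding transcripts (GENCODE vM1), the rank of the strongest such peak by fold within its list, cover of gene bodies, and motif words in the mm9 genome. Chromosome names and lengths of that genome matched the lists, apart from 1 narrow RNAPII peak at 2 h and 1 at 4 h that run past a chromosome end and 12 and 8 Miz1 peaks of fibroblasts and B cells on unplaced pieces. Overlap and cover were checked base by base on simulated data. Counts of members are set against the share of all genes that entered the same measure, 22219 symbols for promoter peaks, 9696 for words at Myc 4 h summits and 10222 for cover, with no test, since each group held 1 library. Some counts under alternatives are given without it. Promoter ranks and covers describe these libraries only. Members and lists were chosen with earlier results of these data known. Genes named are those without a Myc or narrow RNAPII peak in at least 1 list, the 3 highest by Myc fold at 4 h and the 3 with the largest cover difference at 30 min in each complex, members with Miz1 in both cell types, tissue isoforms and a fixed set of known subunits. Others, such as the members of a small count, were named after their values were seen. The input library's own signal was not analysed here. Values of 1 gene by name are not reported here, while the counts and medians include it.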

Additional observations from a re-analysis of the deposited data

How the results depend on the processing

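No paired analysis was possible because each group held 1 library. Of 115 recomputed values, 84 stayed within 1.5 times the reported count or median, and 31 did not. Promoter windows of 500 bp and 2000 bp, summits in place of overlap and equal numbers of peaks kept the counts for Myc and RNAPII at 0 min and 4 h within that limit, as did all transcripts' TSSs for Myc and broad lists for RNAPII. With peaks at or above the list's median fold, 53 members had Myc at 0 min, but the share of all genes under this filter is not given here. The fall thus cannot be set against that of all genes. Without members that share a promoter, an alternative chosen after seeing the data, 53 had Myc at 4 h and 52 at 0 min, and 55 had RNAPII at both times, because 62 members remain. Miz1 in fibroblasts fell to 5 members at p 1e-05 (5.38%, against 5.92% of all genes). It also fell to 5 with equal numbers of peaks, where the share of all genes is not given.

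Cover depended on the kind of list. In broad lists the median was 0% at 0 min, 30 min and 4 h, with 0 members higher and 2 lower at 30 min and 2 higher and 0 lower at 4 h. With a limit of 10 points, 12 members were lower at 30 min (16.9%, against 7.56% of all genes), and 19 were higher (26.8%, against 11.7%) and 5 lower (7.04%, against 9.27%) at 4 h. With 30 points, 2 were lower at 30 min (2.82%, against 2.21%) and 7 higher at 4 h (9.86%, against 4.62%). From a length of 2000 bp on, 4 were lower at 4 h (4.94%, against 4.92%). Without the first 2000 bp, the medians were 0.425%, 2.09% and 3.38% at 0 min, 30 min and 4 h, and 3 members were lower at 30 min (4.55%, against 3.78%). Under that setting 8 of 66 members were higher at 4 h (12.1%, against 7.09%) and 1 was lower (1.52%, against 4.49%). At 30 min 7 were higher (10.6%, against 8.97%). With no other gene within 1000 bp, 9 of 32 were higher at 4 h (28.1%, against 6.26%) and 6 at 30 min (18.8%, against 9.18%), 0 were lower at 4 h (against 4.30%) and 2 at 30 min (6.25%, against 3.19%), and the 4 h median was 28.6%. Leaving out genes with a narrow-list gap and keeping subunit genes alone, both chosen after seeing the data, kept the cover counts and medians within the limit. Among genes under 10000 bp, also chosen after seeing the data, the counts stayed within it and the medians did not, with 18.9%, 26.02% and 28.6% at 0 min, 30 min and 4 h. With CACGCG also counted, 23 of 83 members had an E-box (against 36.7% of all genes), and the cause of these shifts was not tested.

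Depth limits the calls: a site below a list's cutoff is not listed, and 1 library per time gives no spread.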

Other observations

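Across the 69 members with a cover value and a Myc promoter peak at 4 h, Spearman's rho of the Myc fold at 4 h with the cover difference of 4 h minus 0 min was 0.18, and it was 0.24 across 9343 genes. Genes are not independent replicates, and depth and gene length enter both measures.

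Usmg5, which encodes a small subunit of ATP synthase outside the letters of the rule, had no narrow RNAPII promoter peak at 30 min, where its Myc fold was 38.5, and had RNAPII folds of 51.8 at 4 h and 38.5 at 0 min. Its narrow cover was 100%, 0%, 0%, 0%, 0% and 100% at 0, 10, 20 and 30 min, 2 h and 4 h, where its broad cover was 7.98%, 71.1%, 95.7%, 35.99%, 54.9% and 55.6%. Of the 22219 symbols, 315 had a gap of this kind in at least 1 library, counted as a broad peak of at least 10-fold over the gene or within 1000 bp of it with no narrow peak under it, and 3 of these were members. At 4 h, 61 broad peaks of at least 10-fold were without a narrow peak, against 121 at 0 min, and the 20 min library had the most, 272.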
